A study of Gallus gallus with 12 samples.

Results

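The larger chicken microchromosomes 11, 12, 13, 14, 17, 18, 19 and 20 were described through the methylation-enriched regions, or peaks, that lay on them in 6 liver peak lists. Membership was by position, and every peak on these 8 chromosomes was taken. They held 75993 of the 356324 peaks (21.3%) on 118.156 Mb of the 1003.74 Mb measured (11.8%), so their share of the peaks exceeded their share of the length. Each peak was the authors' own call from methylated DNA immunoprecipitation sequencing (MeDIP-seq), in which an antibody against methylated cytosine enriches DNA fragments before sequencing.

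The study compared liver from chickens labelled ALV-J-resistant (3 libraries) with liver from chickens labelled ALV-J-susceptible (3 libraries), ALV-J being subgroup J of the avian leukosis virus. Neither group had a treatment in its labels, and the labels are silent on breed, sex, age and infection state. Input DNA of the same sample numbers (6 libraries) served the authors' peak calling and had no peak lists of its own here. Replicate numbers follow the order of deposition and pair nothing. The labels do not say that each library came from a separate bird, so the p-values measure only the spread between these libraries, which may be technical.

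Chicken chromosomes range from a few large macrochromosomes to many small microchromosomes. Microchromosomes are known for dense genes, high GC and CpG content and frequent recombination. In vertebrates most methylated cytosines stand in CpG dinucleotides, and MeDIP recovers a fragment more readily the more methylated CpGs it holds. Coverage by MeDIP peaks therefore depends on CpG density as well as on the methylation level of each CpG, and CpG density was not analysed here.

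The libraries contributed between 11509 and 13961 peaks on the 8 chromosomes, which was 20.7% to 21.7% of each list. Sequencing depth is unknown. Of all libraries, resistant replicate 3 and susceptible replicate 3 stood apart on the sex chromosomes, with 65.3 and 68.1 kb covered by peaks per Mb (kb/Mb) on Z, where the other 4 had 29.9 to 31.8 kb/Mb. On W the same pair had 50.2 and 53.3 kb/Mb, against 179 to 189 kb/Mb in the other 4. Values without this pair are given beside the results they moved most. Peak lists carry no expression, so the labelled tissue could not be checked against liver markers.

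Peaks covered 86.9 ± 3.07 kb/Mb of the 8 chromosomes (mean ± SD, n = 6 libraries). The resistant libraries had 89.7, 86.4 and 86.7 kb/Mb in replicates 1 to 3, and the susceptible libraries had 81.2, 89.0 and 88.5 kb/Mb. The groups overlapped, and the lowest value was that of susceptible replicate 1. The resistant mean was 87.6 ± 1.80 and the susceptible mean 86.2 ± 4.36 kb/Mb (SD, n = 3 each), a difference of 1.37 kb/Mb (exact two-sided permutation p = 0.8, adjusted p = 0.8 over 3 measures). With 3 libraries against 3, such a test cannot go below 0.1. Without susceptible replicate 1 the difference was -1.14 kb/Mb, and without both libraries high on Z it was 2.95 kb/Mb.

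The number and the width of peaks differed between libraries in opposite directions. Resistant replicates 1 to 3 had 118, 112 and 99.98 peaks per Mb, and susceptible replicates 1 to 3 had 102, 113 and 97.4 peaks per Mb. Mean peak width was 759, 770 and 867 bp in the resistant and 793, 788 and 908 bp in the susceptible libraries. Replicate 3 of each group thus had the fewest and the widest peaks, and it did so on 8 of 8 chromosomes. Resistant libraries averaged 110.1 ± 9.27 and susceptible libraries 104 ± 7.94 peaks per Mb, and peak width averaged 799 ± 59.5 bp in the resistant against 830 ± 68.1 bp in the susceptible libraries (SD, n = 3 each). The resistant minus susceptible differences of 5.88 peaks per Mb and -31.1 bp were smaller than the spread between libraries (exact two-sided permutation p = 0.5, adjusted p = 0.75 over the 3 measures, for each). With 1 library left out the difference in peaks per Mb was 1.86 (without resistant replicate 1) to 10.95 (without resistant replicate 3), and with lists of equal length it was 1.45. Without susceptible replicate 3 the width difference was 8.20 bp, with the wide resistant replicate 3 still in. Without both libraries high on Z it was -26.0 bp.

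Coverage of single chromosomes ran between 131 and 65.6 kb/Mb, and their order was identical in 6 of 6 libraries. Chromosome 17 (10.5 Mb) led with 131 ± 4.80 kb/Mb and chromosome 19 (9.98 Mb) followed with 125 ± 5.29 kb/Mb (SD, n = 6 for these and the next values). Chromosome 18 (11.2 Mb) had 105 ± 3.53 and chromosome 14 (15.2 Mb) 92.3 ± 2.88 kb/Mb. Chromosome 20 (14.3 Mb) had 81.9 ± 3.45 kb/Mb. The lowest were chromosome 11 (19.4 Mb) with 70.7 ± 2.24, chromosome 13 (17.8 Mb) with 68.8 ± 2.80 and chromosome 12 (19.9 Mb) with 65.6 ± 2.34 kb/Mb. Shorter chromosomes had the higher coverage, with a Spearman rho of -0.929 and a Pearson r of -0.940 between length and mean coverage over 8 chromosomes from the same libraries. The closest neighbours in this order were chromosomes 11 and 13, whose difference within a library was between 0.0262 and 3.41 kb/Mb and whose means differed by less than their SDs.

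**Figure D1:**
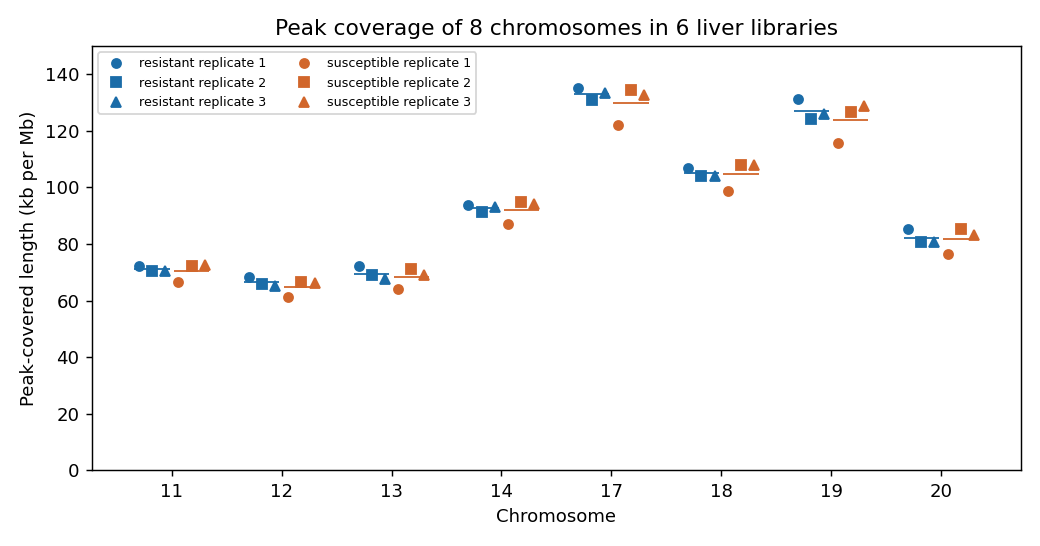
Peak-covered length in kb/Mb (y axis) on each of the 8 chromosomes (x axis), 1 point per library and a line at the mean of each group of 3. Chromosomes 17 and 19 lie above the others in every library, resistant and susceptible points overlap on each chromosome, and susceptible replicate 1 is the lowest point on all 8.

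On chromosome 17 the resistant libraries had 135, 131 and 133 kb/Mb, and the susceptible libraries 122, 135 and 133 kb/Mb. On chromosome 12 the resistant libraries had 68.2, 65.97 and 65.2 kb/Mb, and the susceptible libraries 61.2, 66.5 and 66.3 kb/Mb. On both, susceptible replicate 1 alone fell below the resistant values. The resistant mean exceeded the susceptible mean on 8 of 8 chromosomes, by between 0.215 kb/Mb on chromosome 18 and 3.43 kb/Mb on chromosome 19, and on 24 of 31 over the series. The sign turned on 7 of the 8 without susceptible replicate 1 and on 5 of the 8 with lists of equal length. Without both libraries high on Z the differences were 1.66 kb/Mb on chromosome 14 to 6.59 kb/Mb on chromosome 19, with 2.18 kb/Mb on chromosome 18, 2.05 on chromosome 11, 2.12 on chromosome 20, 2.88 on chromosome 13, 3.24 on chromosome 12 and 4.60 on chromosome 17. None of the differences over all 6 libraries passed the test (exact two-sided permutation p from 0.6 to 1, adjusted p = 1 over 31 chromosomes), and the groups overlapped on each of the 8.

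Coverage of the 8 chromosomes lay between that of the intermediate chromosomes 6 to 10 and that of the small microchromosomes 21, 23, 24 and 26 to 28. It was 86.9 ± 3.07 kb/Mb against 49.6 ± 2.20 kb/Mb on the intermediate chromosomes, a ratio of 1.75 (SD, n = 6). The difference of 37.4 kb/Mb, 35.4 to 38.5 by library, was positive in 6 of 6 libraries (exact two-sided sign-flip permutation p = 0.03125, adjusted p = 0.03125 over 2 comparisons). Against 170.5 ± 5.74 kb/Mb on the small microchromosomes the difference was -83.6 kb/Mb, and it was negative in 6 of 6 libraries (same test, exact p = 0.03125, adjusted p = 0.03125). That p is the smallest 6 libraries allow. Since every library holds the same chromosomes, it speaks for the spread between libraries and not for other chromosomes of such sizes. The sets were pooled, and the intermediate chromosome 10 had 69.5 kb/Mb, above 65.6 on chromosome 12 and 68.8 on chromosome 13.

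The intermediate position held for the number of peaks, for their width and for their spacing, each pooled over a set of chromosomes. The 8 chromosomes had 107 ± 8.37 peaks per Mb, against 68.6 on the intermediate chromosomes and 191 on the small microchromosomes. Mean width was 814 ± 59.7 bp on the 8 chromosomes, against 725 bp on the intermediate chromosomes and 896 bp on the small microchromosomes. The median distance from a peak to the next was 2157 ± 93.4 bp, against 3221 bp on the intermediate chromosomes and 1460 bp on the small microchromosomes. Each of these differences had 1 direction in 6 of 6 libraries. They were not among the tests planned, and no p is given for them. Single chromosomes of different sets overlapped. Chromosome 10 had 90.0 peaks per Mb and a median distance of 2452 bp, against 80.3 peaks per Mb and 2837 bp on chromosome 12. Mean width was 790 bp on the small chromosome 24, against 863 bp on chromosome 18.

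**Figure D2:**
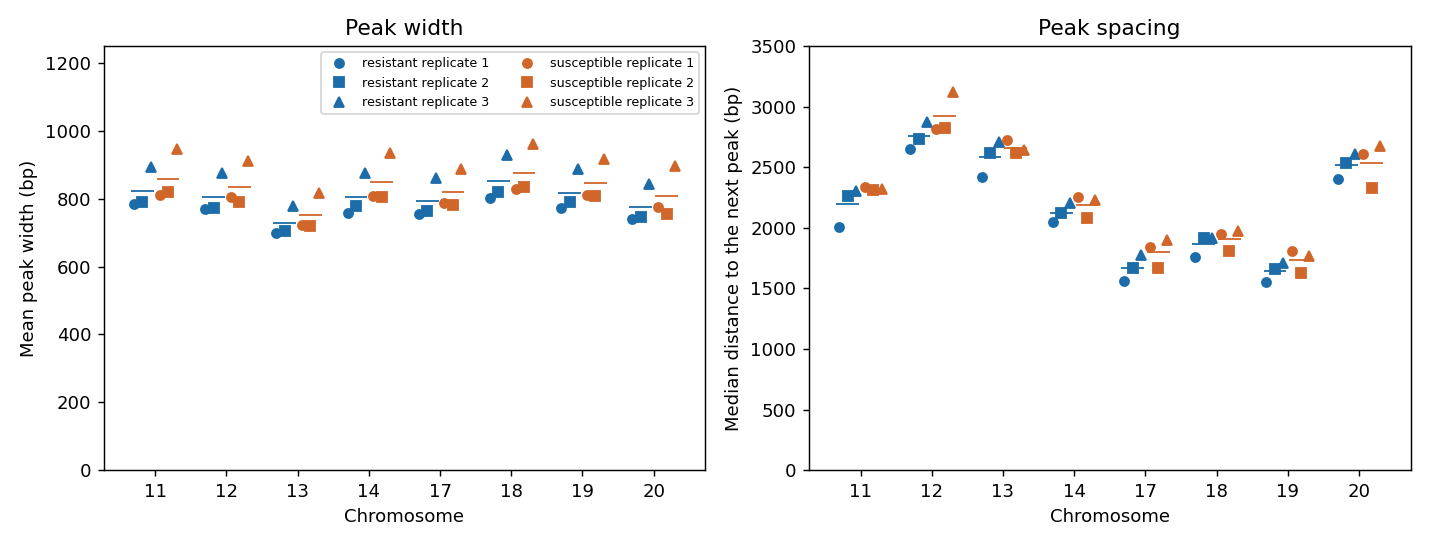
Mean peak width in bp (left) and median distance to the next peak in bp (right) on each of the 8 chromosomes (x axes), 1 point per library and a line at each group's mean. Replicate 3 of each group has the widest peaks on every chromosome, and peaks stand closest together on chromosomes 17, 18 and 19.

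Spacing separated the 8 chromosomes more than width did. The median distance to the next peak was 1688 ± 92.6 bp on chromosome 19, 1735 ± 124 bp on chromosome 17 and 1887 ± 86.1 bp on chromosome 18 (SD, n = 6). It was longest on chromosome 12, with 2837 ± 158 bp, and on chromosome 13, with 2622 ± 108 bp. On chromosome 12 it was 2654, 2735 and 2876 bp in the resistant and 2816, 2822 and 3118 bp in the susceptible libraries, so the groups overlapped. Distances under 1 kb made up 38.0% of all on chromosome 19 and 28.9% on chromosome 13.

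Chromosomes 11 and 12 had the fewest peaks per Mb of the 8, at 84.5 ± 6.15 and 80.3 ± 6.65 (SD, n = 6). By the mean over libraries they also had the largest shares of wide peaks and of peaks at the top of the score range, by narrow margins in part. Peaks of at least 2 kb were 5.73 ± 0.601% of those on chromosome 11 and 5.46 ± 0.986% on chromosome 12. They were 5.27 ± 0.611% on chromosome 18 and 3.46 ± 0.538% on chromosome 13 (SD, n = 6). Mean width ran from 741 ± 47.4 bp on chromosome 13 to 863 ± 66.0 bp on chromosome 18. Scores are the authors' peak values and were read within each list only. They pile up at 3100, which 2146 of the 75993 peaks on the 8 chromosomes reached or passed, against 9568 of 356324 over the series.

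The share of peaks at this score ceiling was highest on chromosome 12. There it was 3.79%, 4.01% and 4.72% in the resistant libraries and 4.49%, 3.71% and 3.94% in the susceptible libraries. On chromosome 13 the same shares were 1.75%, 2.31% and 2.28% in the resistant and 2.22%, 1.48% and 1.27% in the susceptible libraries. Each value on chromosome 12 lay above each value on chromosome 13, and resistant and susceptible libraries overlapped on both. Chromosome 11 came next with a mean of 3.25 ± 0.143%, close to 3.17 ± 0.351% on chromosome 19 (SD, n = 6). Chromosome 17, first by coverage, had a share of only 2.02 ± 0.165% at the ceiling, and over all 8 chromosomes it was 2.83 ± 0.227% (SD, n = 6). This share was 2.01% on the intermediate chromosomes and 2.97% on the small microchromosomes. The median score percentile within the own list was highest on chromosome 19 (56.4 ± 1.14) and lowest on chromosome 13 (50.001 ± 1.04).

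Coverage along each chromosome was read in whole windows of 500 kb counted from position 1, which gave 231 windows. The mean over libraries ran from 0.391 to 183 kb per window with a median of 29.7 kb. The 23 highest windows, about 10% of them, held 30.3% of the covered length, compared with 40.3% for the same share of windows on the intermediate chromosomes and 16.99% on the small microchromosomes. No window was empty in all 6 libraries, 28 had under 5 kb and 25 had at least 100 kb. The profiles of any 2 libraries ran together, with r of 0.997 to 0.998 over windows, which share base composition and mappability and are no independent points.

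**Figure D3:**
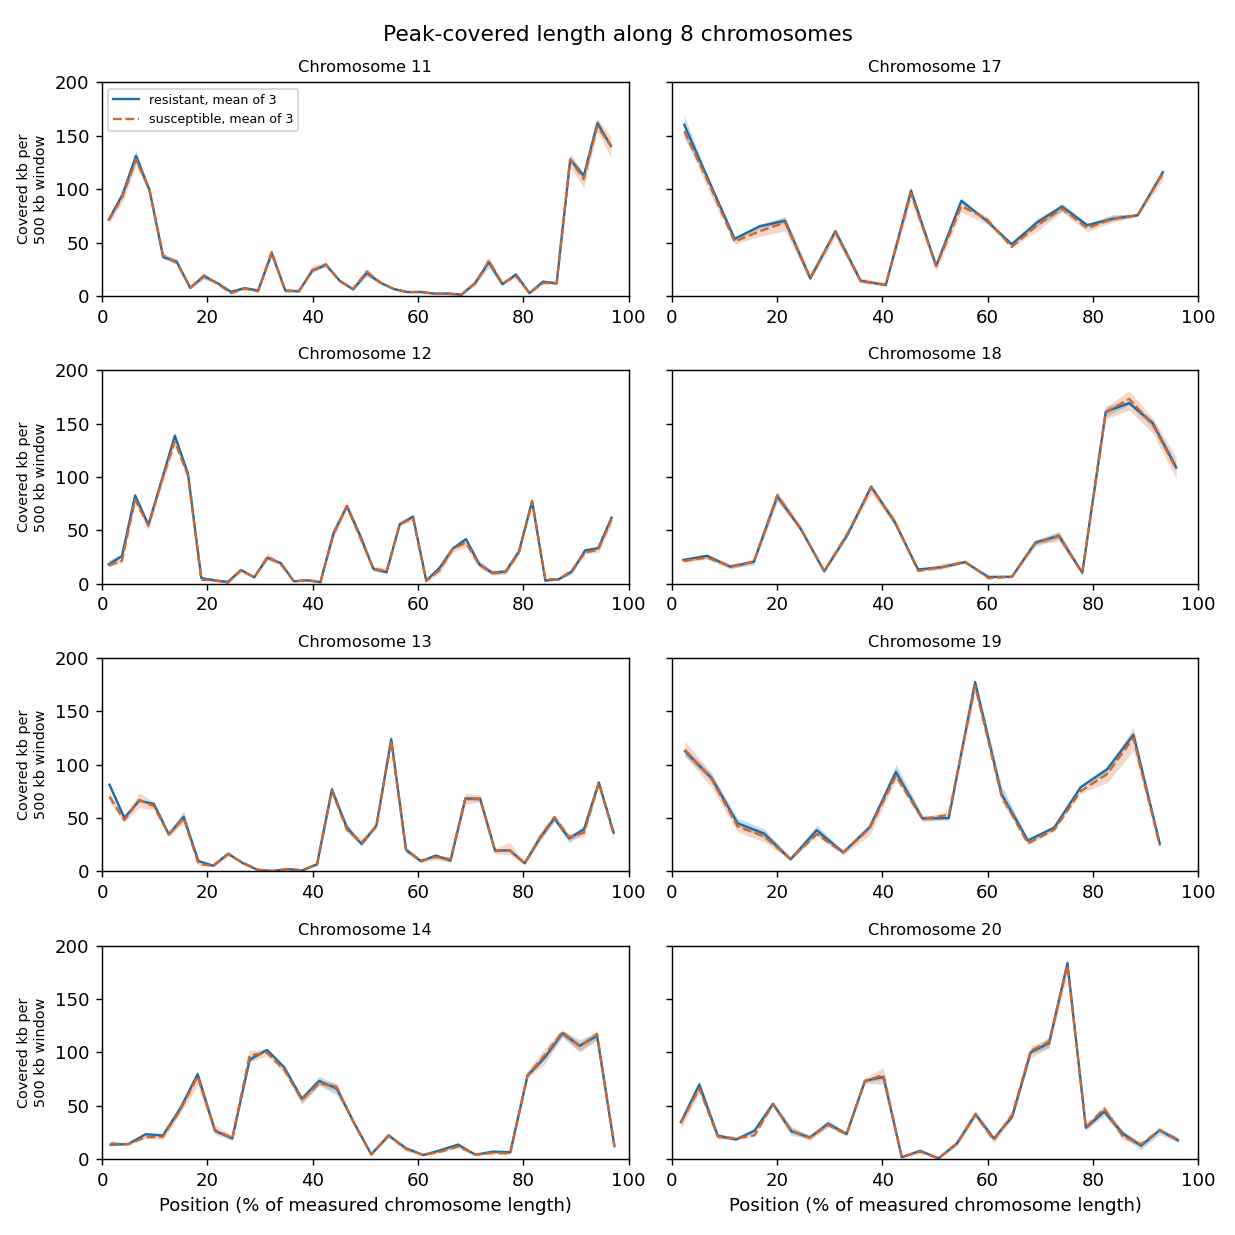
Peak-covered kb in each 500 kb window (y axes) against position in percent of the measured chromosome length (x axes), as the mean of 3 resistant libraries (solid) and 3 susceptible libraries (dashed) with shading from the lowest to the highest library. The 2 lines nearly coincide on all 8 chromosomes, while the shape differs from chromosome to chromosome.

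Chromosome 11 was dense at both ends and sparse between. Its first 4 windows (1 to 2000000) held 28.7% of its covered length on 10.3% of its sequence, with means of 71.2 to 130 kb each. The last 4 whole windows (17000001 to 19000000) ran higher, with means of 111 to 160 kb each. The 6 windows from 10500001 to 13500000 together held 19.5, 20.6 and 18.6 kb in the resistant libraries and 16.2, 19.7 and 20.6 kb in the susceptible libraries, 1.40% of the covered length on 15.5% of the sequence. The groups overlapped in this sparse stretch. Its highest window, 18000001 to 18500000, had 160.3 ± 4.86 kb and its lowest, 13000001 to 13500000, had 1.25 ± 0.508 kb (SD, n = 6).

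Chromosome 12 carried 25.6% of its covered length in the 3 windows from 2000001 to 3500000, and the next 3, up to 5000000, held 0.688%. The highest of its windows, 2500001 to 3000000, had 136 ± 4.07 kb and the lowest, 4500001 to 5000000, 1.29 ± 0.912 kb (SD, n = 6), so the extremes of the chromosome stood within 2.5 Mb of each other.

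On chromosome 13 the 6 windows from 4500001 to 7500000 held 1.64% of the covered length on 16.9% of the sequence. The emptiest window of all 231 lay there, at 5500001 to 6000000, with 0.629, 0.736 and 0 kb in the resistant and 0.272, 0.710 and 0 kb in the susceptible libraries. Replicate 3 of each group had no peak in it, and the other 4 libraries had some. Susceptible replicate 3 had no peak from 5394002 to 6463552, a stretch of 1070 kb. The highest window of the chromosome, 9500001 to 10000000, had 123.02 ± 2.87 kb (SD, n = 6). In the stretch empty in susceptible replicate 3, resistant replicates 1 to 3 had 5, 3 and 2 peaks, and susceptible replicates 1 and 2 had 3 and 4.

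Chromosome 14 was dense near its far end, although its last whole window held less than those just before it. The chromosome ran on past that window, over a piece too short to be read as a whole window. The 5 windows from 12000001 to 14500000 held 36.9% of the covered length of the chromosome on 16.5% of its sequence. The 3 windows from 8500001 to 10000000 held 1.55%. Its highest window, 13000001 to 13500000, had 119 ± 3.06 kb and its lowest, 9000001 to 9500000, had 3.86 ± 0.302 kb (SD, n = 6). Its longest stretch without a peak in any list, 169 kb, ran from 176891 to 346301.

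Chromosome 17 had no window under 10 kb. Its lowest window, 4000001 to 4500000, had 10.4 ± 1.16 kb, and its highest, the first 500 kb, had 157 ± 7.83 kb (SD, n = 6). Its longest stretch without a peak in any list, from 10139083 to 10238737, was the shortest such maximum among the 8 chromosomes at 99.7 kb.

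On chromosome 18 about as much covered length lay in 1 stretch as in all the rest. The 4 windows from 9000001 to 11000000 held 596, 583 and 589 kb in the resistant and 556, 594 and 620 kb in the susceptible libraries, 50.1% of the covered length of the chromosome on 17.8% of its sequence. The groups overlapped. Within this stretch the highest window, 9500001 to 10000000, had 171 ± 6.43 kb. The lowest window, 6500001 to 7000000, had 5.85 ± 1.21 kb (SD, n = 6).

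Chromosome 19 had its highest window past its centre, at 5500001 to 6000000, with 176 ± 4.44 kb, and its lowest, at 2000001 to 2500000, still had 11.5 ± 1.64 kb (SD, n = 6). Chromosome 20 held the highest window of all 8 chromosomes, 10500001 to 11000000. It had 184, 181 and 186 kb in the resistant and 173, 184 and 188 kb in the susceptible libraries, and the groups overlapped. The 3 windows from 9500001 to 11000000 held 33.5% of the covered length of chromosome 20 on 10.5% of its sequence, and the 3 from 6000001 to 7500000 held 0.879%. The lowest of these, 7000001 to 7500000, had 0.824 ± 0.315 kb (SD, n = 6).

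Long stretches without a peak in any list were most frequent on the 3 longest chromosomes. Stretches of at least 100 kb numbered 17 on chromosome 11 (13.8% of its length), 14 on chromosome 12, 12 on chromosome 13, 5 each on chromosomes 14 and 20, 4 on chromosome 18, 2 on chromosome 19 and 0 on chromosome 17. The longest were 420.0 kb on chromosome 20 (7161088 to 7581134), 382 kb on chromosome 11 (11725485 to 12107762) and 305 kb on chromosome 12 (7448845 to 7753717). Chromosome 13 had at most 298 kb (13944224 to 14242602), chromosome 18 169 kb (10918923 to 11088413) and chromosome 19 111 kb (2752324 to 2863420). Assembly gaps and mappability were not examined, and a place without a peak is not shown to be unmethylated.

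Windows in which the groups did not overlap were few. Every resistant library exceeded every susceptible library in 8 of the 231 windows (3.46%), against 67 of 1990 windows (3.37%) over all chromosomes. Every susceptible library exceeded every resistant library in 1 window (0.433%), against 28 of 1990 (1.41%). No single window was tested. With 1 library left out the counts were 10 to 41 and 1 to 21, and without both libraries high on Z they were 46 and 5, fewer libraries then having to differ. The balance of directions was not stable, with 4 against 6 windows when lists were of equal length and 10 against 21 without susceptible replicate 1.

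The largest difference of group means in a window was that of the first 500 kb of chromosome 13. It had 83.5, 79.5 and 80.7 kb in the resistant libraries and 74.6, 64.8 and 70.6 kb in the susceptible libraries, a difference of means of 11.2 kb, or 8.60 to 13.5 kb with 1 library left out. Among the windows without overlap the next were 500001 to 1000000 on chromosome 12, with a difference of 4.31 kb, and 2000001 to 2500000 on chromosome 20, with 4.28 kb. When only peaks at or above the pooled median score were kept, the difference in these windows was 10.1 kb on chromosome 13, -0.0997 kb on chromosome 12 and 0.453 kb on chromosome 20, and with lists of equal length that on chromosome 20 was 1.76 kb. The 1 window higher in susceptible libraries, 16500001 to 17000000 on chromosome 12, had 3.15, 3.01 and 2.51 kb in the resistant and 4.22, 4.54 and 4.41 kb in the susceptible libraries. Its difference of -1.50 kb was -0.206 kb with the score minimum.

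Chromosome ends, taken as the first and last 1 Mb, were more densely covered than the middle over the 8 chromosomes together. Ends had 125, 118 and 121 kb/Mb in the resistant libraries and 111, 120.3 and 122.9 kb/Mb in the susceptible libraries. The middle had 84.2, 81.5 and 81.3 kb/Mb in the resistant and 76.5, 84.1 and 83.1 kb/Mb in the susceptible libraries. Each library's ends lay above every library's middle. The difference was 37.9 ± 2.33 kb/Mb (SD, n = 6), a ratio of 1.46, in 6 of 6 libraries (exact two-sided sign-flip permutation p = 0.03125). As every library holds the same 8 chromosomes, that p measures the spread between libraries only and not that between chromosomes. The resistant minus susceptible difference of ends minus middle was 1.87 kb/Mb (exact two-sided permutation p = 0.3). With ends of 2 Mb the difference was 58.0 kb/Mb. By the same measure, with ends of 1 Mb, the ratio was 1.96 on the intermediate chromosomes and 1.09 on the small microchromosomes.

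Over the 8 chromosomes together, peaks at the ends scored higher within their lists. The median score percentile was 59.1 ± 0.999 at the ends and 52.3 ± 0.726 in the middle, and the share at the score ceiling was 3.76% at the ends and 2.63% in the middle (SD, n = 6). Mean width was 844 bp at the ends and 808 bp in the middle. The ends held 17.99% of the peaks on 13.5% of the length. Chromosome 20 ran the other way, with a median percentile of 48.6 at the ends and 53.4 in the middle. On chromosomes 12, 18 and 20 mean width and ceiling share were lower at the ends, for example 716 bp at the ends and 807 bp in the middle, and 0.888% at the ends and 2.88% in the middle, on chromosome 20. These values were not tested.

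The 8 chromosomes did not share 1 pattern at their ends. Ends were called above the middle on 5 of 8 chromosomes (11, 13, 17, 18 and 19), against 74.1% of the 27 chromosomes longer than 4 Mb, and below the middle on 1 of 8 (chromosome 14), against 18.5% of the 27 (exact two-sided sign-flip permutation p = 0.03125 and adjusted p = 0.03375 for each of the 6). With 25 of 27 chromosomes called in one direction or the other, a call says little more than that the libraries were alike. The sizes set the chromosomes apart.

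The largest excess was on chromosome 11, where ends had 181 ± 5.88 kb/Mb and the middle 58.1 ± 1.86 kb/Mb, a ratio of 3.11 (SD, n = 6). Chromosome 17 had 204 ± 7.56 kb/Mb at its ends and 114 ± 4.501 kb/Mb in its middle, and chromosome 13 had 116 ± 5.18 kb/Mb at its ends and 62.8 ± 2.71 kb/Mb in its middle. At this end length the excess was 11.3 kb/Mb on chromosome 19 and 6.60 kb/Mb on chromosome 18. With ends of 2 Mb it was 24.6 kb/Mb on chromosome 19 and 87.8 kb/Mb on chromosome 18, which then took in more of the dense stretch from 9000001 on, and it was 54.1 kb/Mb on chromosome 17. On chromosome 14 the ends had 64.2 ± 3.12 kb/Mb and the middle 96.6 ± 2.94 kb/Mb, lower in 6 of 6 libraries. With ends of 2 Mb its difference turned to 12.1 kb/Mb and with ends of 10% of the chromosome it was -1.66 kb/Mb, and at 2 Mb the dense stretch that begins at 12000001 lay partly in the end. Chromosome 12 had 66.6 kb/Mb at its ends and 65.4 kb/Mb in its middle, higher in 5 of 6 libraries (exact p = 0.1875, adjusted p = 0.195). Its difference was 22.6 kb/Mb with ends of 2 Mb and 23.1 kb/Mb with ends of 10% (exact unadjusted p = 0.03125 for each), and -0.347 kb/Mb with the score minimum. Chromosome 20 had 80.9 kb/Mb at its ends and 82.0 kb/Mb in its middle, higher at the ends in 2 of 6 libraries (exact p = 0.375, adjusted p = 0.375). Its difference was -35.0 kb/Mb with ends of 2 Mb, -18.3 kb/Mb with ends of 10% and -6.20 kb/Mb with the score minimum (exact unadjusted p = 0.03125 for each). The calls on chromosomes 12, 14 and 20 therefore depended on the length taken as an end.

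**Figure D4:**
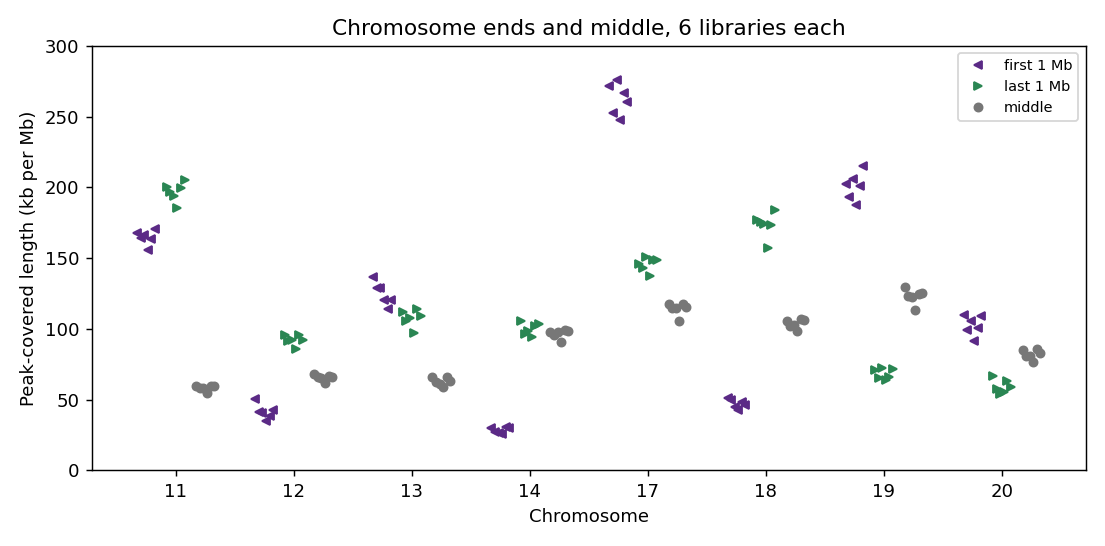
Peak-covered length in kb/Mb (y axis) in the first 1 Mb, the last 1 Mb and the middle of each of the 8 chromosomes (x axis), 1 point per library. The 2 ends of a chromosome are far apart on chromosomes 17, 18 and 19, and the first 1 Mb lies below the middle on chromosomes 12, 14 and 18.

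The 2 ends of 1 chromosome were often unlike. On chromosome 18 the first 1 Mb had 47.1 ± 3.13 kb/Mb and the last 1 Mb 174 ± 8.90 kb/Mb (SD, n = 6). The reverse held on chromosome 19, with 201 ± 9.68 kb/Mb in the first and 68.3 ± 3.61 kb/Mb in the last 1 Mb, and on chromosome 17, with 263 ± 10.8 kb/Mb in the first and 146 ± 4.80 kb/Mb in the last 1 Mb. The excess at the ends of chromosomes 18 and 19 was thus a mean over 1 dense and 1 sparse end. The first 1 Mb of chromosome 14 had 28.4 ± 2.17 kb/Mb, the lowest of all these ends, and its last 1 Mb had 100 ± 4.21 kb/Mb. In every library that last 1 Mb lay above the middle of the chromosome (mean 96.6 kb/Mb). The lower value at the ends of chromosome 14 thus came from its first 1 Mb alone. Chromosomes 12 and 20 likewise joined unlike ends, with 41.3 kb/Mb in the first and 92.0 kb/Mb in the last 1 Mb of chromosome 12, and 103 kb/Mb in the first and 59.2 kb/Mb in the last 1 Mb of chromosome 20. Both ends lay above the middle on chromosomes 11, 13 and 17, and the first minus the last 1 Mb was -32.0 kb/Mb on chromosome 11 and 17.3 kb/Mb on chromosome 13.

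The first 1 Mb of chromosome 13 had 137, 129 and 129 kb/Mb in the resistant and 121, 114 and 120 kb/Mb in the susceptible libraries, and the groups did not overlap there. The end excess of chromosome 13 was 58.7, 54.9 and 57.1 kb/Mb in the resistant and 50.2, 48.2 and 51.2 kb/Mb in the susceptible libraries. Its difference of 6.998 kb/Mb reached the smallest p possible (exact two-sided permutation p = 0.1), as on 1 of 27 chromosomes, and had an adjusted p of 1 over the 27. Chromosome 13 was picked with its values in view, and it holds the window with the largest group difference, so both are 1 observation.

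Overlapping or touching peaks of the 6 lists merged into 17694 regions on the 8 chromosomes. Of these, 6934 (39.2%, 95% Clopper-Pearson interval 38.5% to 39.9%, counting error only) had a peak in all 6 libraries and 3873 (21.9%) in 1 library. The share in all 6 was 32.1% over the rest of the series, 33.0% on the intermediate chromosomes and 46.0% on the small microchromosomes. Regions found in all 6 libraries were wider, with a median of 1017 bp against 401 bp for those found in 1, and they made up 61.4% of the merged length. Without both libraries high on Z, 47.2% of regions had a peak in each of the remaining 4. Merging itself widens a region with each library that adds to it.

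Sharing followed coverage in part. The share of regions in all 6 libraries was highest on chromosomes 17 and 19, with 43.3% each, and lowest on chromosome 13, with 34.8%. Chromosome 11, of low coverage, had 39.3% and so stood close to chromosome 14 with 39.1%. Regions found in 1 library numbered 1114, 732 and 438 in resistant replicates 1 to 3 and 350, 821 and 418 in susceptible replicates 1 to 3. They were thus most frequent in the library with the most peaks.

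**Figure D5:**
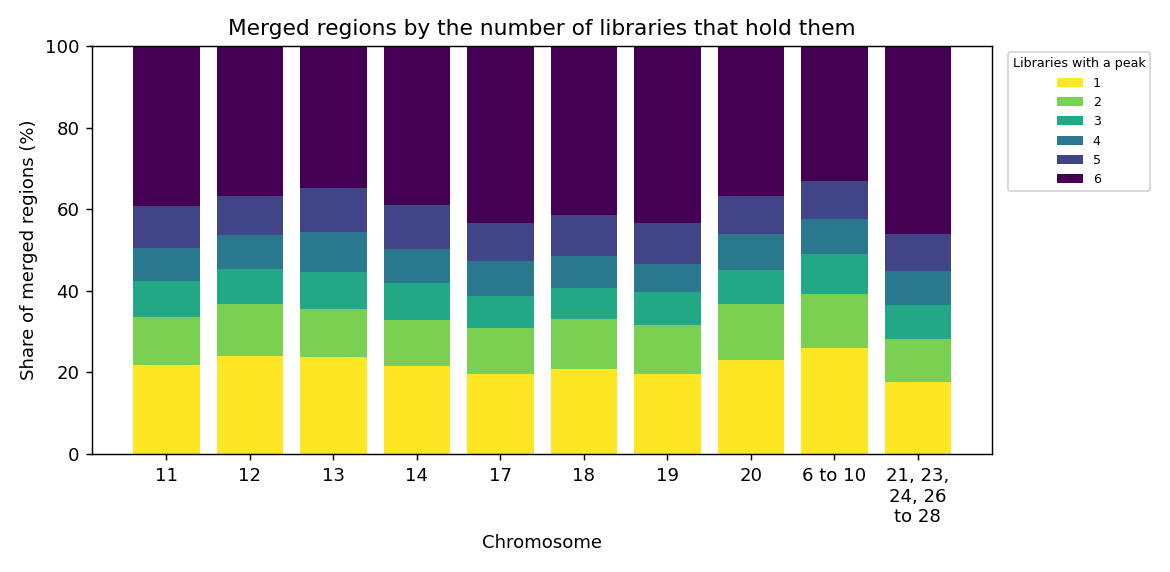
Share of merged regions in percent (y axis) with a peak in 1 to 6 libraries, for each of the 8 chromosomes and for chromosomes 6 to 10 and 21, 23, 24 and 26 to 28 (x axis). The topmost block, regions in all 6 libraries, is 34.8% on chromosome 13 and 43.3% on chromosomes 17 and 19.

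Regions held by 1 group alone were about as frequent as in the series as a whole. Resistant-only regions, with a peak in 3 of 3 resistant and 0 of 3 susceptible libraries, numbered 102 of 17694 (0.576%), against 0.577% of all merged regions of the series. Susceptible-only regions numbered 54 (0.305%), against 0.320%. Exactly 3 libraries held 1495 of the regions, and 156 of those (10.4%, interval 8.93% to 12.1%) followed the groups, against 9.46% in the series. By chromosome, resistant-only regions ran from 8 on chromosome 19 to 18 on chromosome 14, and susceptible-only regions from 1 on chromosome 19 to 9 on chromosome 13. As shares of a chromosome's regions, both were highest on chromosome 18, at 0.769% and 0.440%, with 0.768% resistant-only on chromosome 14 and 0.367% susceptible-only on chromosome 13. With 1 library left out the 2 counts were 210 to 317 and 102 to 204, and without both libraries high on Z they were 534 and 302, since fewer libraries then had to differ. The excess of resistant-only regions was not stable. With lists of equal length there were 76 resistant-only against 82 susceptible-only regions.

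The 3 resistant-only regions that ranked highest by the lowest score percentile of their libraries lay on chromosomes 14, 13 and 20. The first, chr14:15150255-15151124 (galGal4), was 870 bp wide and scored 185, 299 and 282 in resistant replicates 1 to 3. A susceptible peak stood only 362 bp away. The second, chr13:1123113-1124519, was 1407 bp wide and scored 356, 720.05 and 188, with the nearest susceptible peak at 3615 bp. The third, chr20:11956528-11957142, was 615 bp wide and scored 163, 271 and 158, with the nearest susceptible peak at 1275 bp. The percentiles of these scores within their own lists ran from 40.1 to 85.0.

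Among susceptible-only regions the highest rank went to chr14:10257368-10257759, which was 392 bp wide, scored 233, 199 and 189.9 in susceptible replicates 1 to 3, and had no resistant peak within 10803 bp. The next, chr18:10570288-10571267, was 980 bp wide and scored 199.8, 135 and 137, with a resistant peak 767 bp away. The last, chr17:810085-810648, was 564 bp wide and scored 419, 158 and 134, with a resistant peak 499 bp away. None of the 6 regions could be found again as group-only when only peaks at or above the pooled median score of 194 were kept. In each of them at least 1 of the 3 libraries scored below that minimum, so their scores fixed this outcome. Genes at these positions are not analysed here.

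The widest merged regions stood in or beside the dense stretches. On chromosome 18, chr18:9476503-9495645 was 19143 bp wide and had a peak in all 6 libraries, as 6, 3 and 3 peaks in the resistant and 4, 4 and 2 in the susceptible libraries. On chromosome 11, chr11:17911432-17929305 was 17874 bp wide, as 3, 1 and 2 peaks in the resistant and 3, 2 and 1 in the susceptible libraries. The same stretch was thus called whole in some libraries and in pieces in others, in both groups. The widest regions of the other 6 chromosomes measured 9830 to 12298 bp, and among them chr20:10935471-10947614 lay in the highest window of its chromosome and chr12:2479387-2491684 ended just before it. The widest region of chromosome 17, chr17:79012-90089, lay in its first 500 kb.

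Regions at the score ceiling in all 6 libraries numbered 214 of 17694 on the 8 chromosomes, against 807 of 90181 over the series. They numbered 110 of 15135 on the intermediate chromosomes and 101 of 8205 on the small microchromosomes. Chromosome 12 had the most, 44, followed by chromosome 11 with 36 and chromosome 14 with 32, and chromosome 13 had the fewest, 14. The 2 chromosomes of lowest coverage, 12 and 13, thus held the most and the fewest of the strongest regions. The region with the highest score percentile in its weakest library, ties at the ceiling being broken by width, was also the widest on chromosomes 11, 12, 13 and 17. On the others it was chr14:13661660-13670202, chr18:4340283-4343757, chr19:5497111-5506107 and chr20:8379252-8382590. A score of 3100 had its lowest percentile, 98.44, in susceptible replicate 1. On these other chromosomes the named region passed 3100 in that library, and on chromosomes 18 and 20 it did so in resistant replicate 3 as well. The widest region, also at the ceiling in all 6 libraries, stayed at 3100 in susceptible replicate 1. It therefore ranked below the named region through scores past 3100 and not through width. Over the series 9010 of the 9568 scores at the ceiling were exactly 3100, and the highest score was 3233.06. Whether a score above 3100 marks a stronger peak than the pile-up at 3100 was not tested. The regions named on these other chromosomes are therefore not shown to be stronger than regions at 3100 in every library. The named regions on chromosomes 18 and 20 were narrow, at 3475 and 3339 bp, and were called as 2 peaks and as 1 peak in each of the 6 libraries.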

How the data were processed

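Methylated DNA immunoprecipitation was sequenced from liver of ALV-J-resistant (3 libraries) and ALV-J-susceptible (3 libraries) chickens, grouped by the source label. Reads were handled with cutadapt and Bowtie2 on the build galGal4, per the submitters' processing notes. Versions, read filters and duplicate handling are not given in sources used here. The authors deposited 1 peak list per library with a score per peak. Per the names in the lists, each library was called with MACS against the input of its own sample number, so replicates were not pooled. The deposited score began at 80.0. Its values were read as the caller's p on the negative log10 scale, multiplied by 10, and the lowest stands for 1e-08. The score piles up at 3100 and rises with depth, so it was ranked within a list only, except where the pooled median was used as a common minimum. Depth is unknown, and the number of libraries limits the precision.

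Computation used Python 3.11.15 with numpy 2.4.6, pandas 2.3.3, scipy 1.17.1 and matplotlib 3.10.9. Positions are on galGal4, counted from 1, and chromosome length is the highest peak end in any list. Groups were compared with exact two-sided permutation tests over 3 against 3 libraries, and ends with middle and chromosome sets with each other by exact sign-flip permutation over 6 libraries. P-values were adjusted by the Benjamini-Hochberg method over all 31 chromosomes, over the 27 longer than 4 Mb for ends, and over the comparisons counted in the text. The functions behind the statistics were tested on simulated data. The 8 chromosomes, the comparisons and the lists were chosen with earlier results of these data known. Named for each chromosome were the highest and lowest window, the longest stretch without a peak, the region in all 6 libraries with the highest lowest score percentile and the widest such region. The 3 highest-ranked group-only regions and up to 3 non-overlapping windows were named in each direction. The limits of 10 and 60 kb per window used to mark sparse and dense runs, and the singling out of chromosome 13, were chosen after values were seen.

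Alternatives were a minimum at the pooled median score, list lengths cut to the 55599 strongest peaks, leaving out each library or both libraries high on Z, joining peaks up to 500 bp apart, a cover of at least 50% of a region, ends of 2 Mb or 10%, ends counted from the first peak, and windows of 250 or 1000 kb. Genes, CpG content and sequence were not analysed here.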

Additional observations from a re-analysis of the deposited data

How the results depend on the processing

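Depth is unknown, so sensitivity to reads cannot be compared between libraries. Of 339 alternative values, 202 kept their direction and their side of the p threshold of 0.05, or stayed within a set range. That range applied to counts and shares. Group tests could not change side, as their smallest p lies above 0.05. Sign-flip results that passed with 6 libraries had to lose the threshold when libraries were left out. The tally was thus partly fixed in advance. No paired analysis was possible because the resistant and susceptible libraries share no sample number in their labels. The resistant minus susceptible difference in covered length was -0.503 kb per Mb with equal lists and -1.14 to 2.76 with 1 library left out, and that in peak width was -65.3 to 8.20 bp. By chromosome, equal lists gave -0.913 on 11, -0.129 on 13, -1.43 on 14, -1.68 on 18 and -1.42 kb per Mb on 20, and the score minimum gave -0.624 on 14. Leaving out 1 library gave -1.24 to 1.78 on 11, -0.582 to 2.83 on 13, -1.84 to 2.03 on 14, -0.491 to 5.76 on 17, -2.87 to 1.77 on 18, -0.524 to 5.97 on 19 and -2.19 to 2.33 on 20, each low without susceptible replicate 1. Chromosomes 18 and 20 were also below 0, at -0.719 and -1.05, without resistant replicate 1. Ends minus middle was 37.4 to 38.5 kb per Mb with 1 library left out and 37.0 without both libraries high on Z. The 8 minus the intermediate chromosomes gave 37.1 to 37.8 and 36.9, and minus the small microchromosomes -84.5 to -82.8 and -82.1. These no longer passed because the smallest p is 0.0625 with 5 and 0.125 with 4 libraries. By chromosome, ends minus middle turned to -0.347 on 12 with the score minimum, where 20 gave -6.20. Ends of 2 Mb gave 12.1 on 14, 22.6 on 12, -35.0 on 20, 87.8 on 18, 54.1 on 17 and 58.0 over the 8, and ends of 10% gave -1.66 on 14, 23.1 on 12 and -18.3 on 20. Calls on 12 and 20 were gained there. Resistant-only regions numbered 50 of 9233 with the score minimum and 76 of 16549 with equal lists, against 102 of 17694 with all peaks. They numbered 210 to 317 with 1 library left out and 534 without both. Susceptible-only regions numbered 33 of 9233, 102 to 204 and 302, and 82 of 16549 with equal lists, against 54 of 17694 with all peaks. With fewer libraries fewer have to differ, so these counts grow by construction. None (0 of 3 in each direction) of the named group-only regions was found again with the score minimum. Each had a library below that minimum, so their scores fixed this outcome. The share of regions in all libraries was 41.7% with the score minimum, 40.0% with equal lists, 41.8% to 43.0% with 1 library left out, 47.2% without both, 41.2% with joined peaks and 34.2% with 50% cover. Windows with every resistant library higher numbered, of 231, 5 with the score minimum and 4 with equal lists. They numbered 10 to 41 with 1 library left out and 46 without both. Other window lengths gave 22 of 468 at 250 kb and 5 of 114 at 1000 kb, against 8 of 231 at 500 kb. In the same order, windows with every susceptible library higher numbered 3, 6, 1 to 21, 5, 5 of 468 and 0 of 114. The window 500001 to 1000000 on chromosome 12 turned to -0.0997 kb with the score minimum. The cause of the remaining changes was not tested.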

Other observations

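Over the 8 chromosomes the Jaccard index of a pair of libraries, that is their shared covered length as a fraction of their joint covered length, was 0.673 ± 0.00446 for the 6 pairs within a group and 0.673 ± 0.00765 for the 9 pairs between groups (mean ± SD, pairs share libraries). The most alike pair was resistant replicate 2 with susceptible replicate 1 (0.686), and the least alike was resistant replicate 1 with susceptible replicate 3 (0.659). By chromosome the mean over pairs was lowest on chromosome 13 (0.631) and highest on chromosomes 11 and 18 (0.691 each).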
